A study of Gallus gallus with 6 samples.

Results

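The bile acid genes described here are 10 genes of the chicken liver that make bile acids (CYP7A1, CYP8B1, CYP27A1, CYP7B1 and AKR1D1), conjugate them (BAAT), move them (ABCB11 and SLC10A1) and sense them (NR1H4 and NR0B2). They were taken by name, and each was found by its NCBI Gene ID, so they are 10 of the 20498 genes in the FPKM table. The libraries came from the liver of F1 Jingxing-Huang (JXH) chickens, a cultivated dwarf line, all of them males at 36 weeks of age. In the paternal group, 3 birds had fatty liver and were the offspring of sires with fatty liver and hens without fatty liver. Both the sires and the hens of this group were on the high-fat diet. In the control group, 3 birds had non-fatty liver and came from parents without fatty liver that were fed the basal diet. All F1 birds of both groups were raised on the basal diet, so none of the 6 livers was exposed to the high-fat diet directly. The fatty liver of the birds, the fatty liver of their sires and the diet of both parents differ together between the groups, so they cannot be told apart, and whether birds of a group shared a sire was not given in the sources used here.

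Bile acids are made from cholesterol in hepatocytes. The classic route starts with CYP7A1, and the alternative route starts with the oxidation of the side chain by CYP27A1 and goes on with CYP7B1. The products are conjugated, secreted into bile, taken up again in the intestine and returned to the liver. There they bind the nuclear receptor FXR, the product of NR1H4, which in mammals induces the export pump ABCB11 and the repressor SHP (NR0B2). Through SHP, FXR lowers CYP7A1 and CYP8B1.

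Levels are given as FPKM, in which the fragments counted for a gene are divided by its exon length and by the total of its library. These totals, worked out from the values, were between 8861927 and 10407856 fragments. Hepatocyte markers were abundant in all 6 livers, with a sum over 9 genes of 126300 to 136600 FPKM in fatty liver and 123500 to 153600 FPKM in control. The summed levels of the markers of bile duct cells, macrophages, lymphocytes, stellate cells, endothelial cells, erythrocytes and intestine overlapped between the groups, and of the intestine markers FABP2 and CDX2 were listed at 0 in every bird. All 6 lymphocyte markers and 7 of the 9 hepatocyte markers had a negative log2 fold change, and 0 of them were called by the limma fit described next (3 at an unadjusted p under 0.05, ALB, FGG and CD3D). Over all genes in that fit, 3572 of 10886 were negative, 1.14% were called and 16.3% had an unadjusted p under 0.05. APOA1, another hepatocyte marker, had a log2 fold change of 1.13 and was not called either (limma adjusted p = 0.13). Fatty liver replicate 1 had the lowest sums for macrophages (179.7 FPKM, against 254.8 to 885.9 FPKM in the other 5 birds) and for lymphocytes (20.1 FPKM, against 24.2 to 68.3 FPKM). Such sums follow their most abundant genes, as CD74 gave 169.4 FPKM of the macrophage sum in fatty liver replicate 1. In a bulk liver sample, fewer cells of a type and less RNA per cell cannot be told apart.

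None of the bile acid genes was differentially expressed between birds with fatty liver and control birds. The limma fit of log2(FPKM + 1) took the 10886 genes whose mean level reached 1 FPKM, and these held 9 of the 10 bile acid genes, all but SLC10A1. Among the 9, 0 had an adjusted p under 0.05 (limma, Benjamini-Hochberg over all genes tested), and 1, CYP7A1, had an unadjusted p under 0.05. Of all genes tested, 1.14% were called (0.845% higher and 0.294% lower in fatty liver) and 16.3% had an unadjusted p under 0.05. The groups lay apart without overlap in 0 of the 9 genes. Over all genes tested the groups did not overlap in 23.0%, with fatty liver higher in 18.3% and lower in 4.78%. At a share of 1.14%, no call among 9 genes is near the background, and nothing particular to the bile acid genes can be read from it.

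The log2 fold change, fatty liver minus control, was positive in 7 of the 9 genes and negative in 2, with a median of 0.05, where all genes tested had a median of 0.12. After rescaling, in which library totals were made equal leaving out the 50 most abundant genes, the median of all genes tested was -0.01, that of the 9 genes was -0.11, and 3 of the 9 were positive. The direction of CYP8B1, CYP7B1, AKR1D1 and ABCB11, 4 of the 9, thus depended on the scaling. BAAT, counted among the 3 positive after rescaling, had a log2 fold change that rounded to 0 there and so kept no clear direction. Under that scaling 0.772% of the genes tested were called, 52.4% of them higher in fatty liver, against 74.2% of the calls made without rescaling, and 0 of the bile acid genes were called. In the fit without rescaling, CYP27A1, CYP7B1, AKR1D1, BAAT, ABCB11 and NR1H4, 6 of the 9, had a 95% interval within a 2-fold change in either direction. Over all genes tested this was so in 79.1%. For CYP7A1, CYP8B1 and NR0B2 the interval reached beyond a 2-fold change. No intervals are given for the rescaled fit, in which AKR1D1 had a log2 fold change of -0.12 and a standard error of 0.4.

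**Figure D1:**
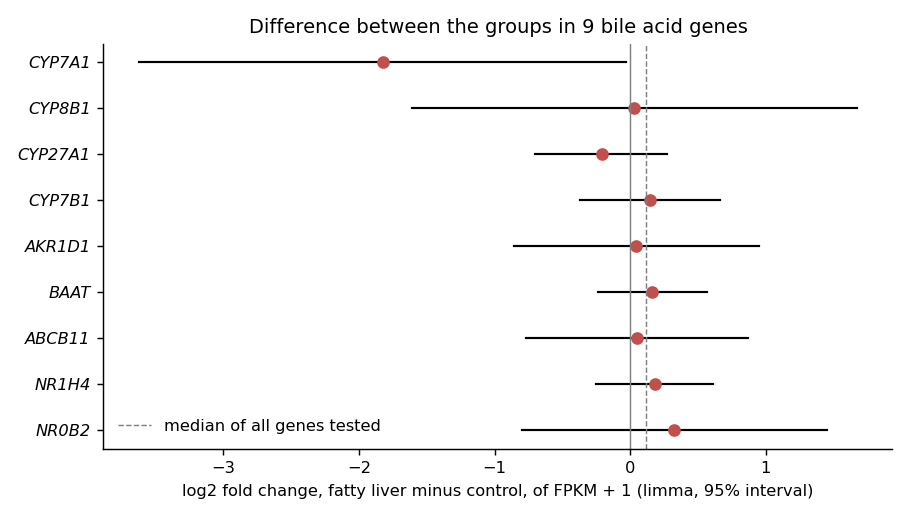
Log2 fold change of FPKM + 1 (horizontal axis, fatty liver minus control) for the 9 bile acid genes tested. Points are limma estimates, bars are 95% intervals, and the dashed line is the median of all genes tested at 0.12. The CYP7A1 estimate is -1.82 with an interval of -3.62 to -0.03, the intervals of CYP8B1 and NR0B2 extend past 1, and the other 6 lie between -1 and 1.

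CYP7A1, the rate-limiting enzyme of the classic route, had 8.97, 3.12 and 3.75 FPKM in birds with fatty liver 1, 2 and 3, against 43.5, 37.5 and 4.07 FPKM in control birds 1, 2 and 3. The level was low in all birds with fatty liver and also in control bird 3, which lay between them. The means were 5.28 ± 3.21 FPKM in fatty liver and 28.3 ± 21.2 FPKM in control (SD, n = 3 birds each). The log2 fold change was -1.82 (standard error 0.78, limma unadjusted p = 0.047, adjusted p = 0.3). The levels rested on 164, 55 and 69 fragments in fatty liver and 827, 607 and 72 fragments in control. The exact 95% Poisson interval of control bird 3 was 3.19 to 5.13 FPKM and that of control bird 2 was 34.5 to 40.6 FPKM, so control birds differed from each other by more than counting error, the only error these intervals cover. The highest control bird had 10.7 times the FPKM of the lowest.

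Control replicate 3 decided the call of CYP7A1. Without that bird the log2 fold change was -2.83 and the adjusted p was 0.03 (limma), and CYP7A1 then passed the threshold. In the other 14 alternatives CYP7A1 was not called, with log2 fold changes between -2.22 and -1.27. The bird was left out in turn as were the other 5, and the labels give no reason to set it aside. In control bird 3, 4 of the 9 bile acid genes (CYP8B1, AKR1D1, BAAT and ABCB11) had their lowest value of all 6 birds, as did 24.5% of all genes tested. CYP7A1 was not among them, as it was lower in fatty liver birds 2 and 3. In control bird 2, 4 of the 9 (CYP8B1, CYP27A1, AKR1D1 and ABCB11) had their highest value, against 23% of all genes tested. In control bird 1, 2 of the 9 (CYP7A1 and CYP7B1) had their highest value, against 3.78% of all genes tested. What lies behind these counts was not tested. The library of control bird 3 had 9675583 fragments, within the range of the others.

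CYP8B1 adds the hydroxyl group that sets cholic acid apart from chenodeoxycholic acid. By mean level it ranked 8 of the 9 genes in fatty liver and last in control. It had 9.73, 5.81 and 9.29 FPKM in birds with fatty liver and 5.31, 31.5 and 2.45 FPKM in control birds. Control bird 2 was far above all others and control bird 3 was the lowest, so the fatty liver birds lay inside the range of the control birds. Its log2 fold change was 0.03 with a 95% interval of -1.61 to 1.67 (limma adjusted p = 0.99). The lowest value was counted on 39 fragments, with a Poisson interval of 1.74 to 3.35 FPKM. The scatter between birds of a group was wide in both enzymes. The SD within groups on the log2(FPKM + 1) scale was 1.33 for CYP7A1 and 1.21 for CYP8B1, above that of 99.6% and 99.2% of the genes tested.

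CYP27A1, the mitochondrial enzyme that oxidises the side chain, was the most abundant of the bile acid genes in both groups. It had 264, 192.5 and 214 FPKM in fatty liver and 220.3, 328.4 and 234.2 FPKM in control, and the groups overlapped. Its log2 fold change was -0.21 (95% interval -0.7 to 0.27, limma adjusted p = 0.67). CYP7B1, the oxysterol hydroxylase of the alternative route, had 92.5, 83.9 and 100.2 FPKM in fatty liver and 106.2, 60.4 and 88.6 FPKM in control. Here control bird 2, the highest for CYP27A1, was the lowest. CYP7B1 had a log2 fold change of 0.15 (95% interval -0.37 to 0.66, adjusted p = 0.79). The values of both genes differed by less than 2-fold between any birds of a group, with the highest at most 1.76 times the lowest.

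AKR1D1 reduces the double bond of the sterol ring in both routes. It had 98.2, 95 and 56 FPKM in birds with fatty liver, against 91.5, 122.3 and 42.4 FPKM in control birds. The third bird was the lowest in each group, and the groups had nearly the same mean (83.1 ± 23.5 FPKM in fatty liver and 85.4 ± 40.3 FPKM in control, SD, n = 3 birds each). The log2 fold change was 0.04 (95% interval -0.86 to 0.95, limma adjusted p = 0.97). BAAT, which joins bile acids to taurine or glycine, had 52.1, 58.1 and 67.6 FPKM in fatty liver and 53.4, 59 and 45.9 FPKM in control. It was the steadiest of the 9 genes, with an SD within groups of 0.18 on the log2 scale, above that of 30% of the genes tested. Its log2 fold change was 0.16 (95% interval -0.24 to 0.57, adjusted p = 0.69).

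**Figure D2:**
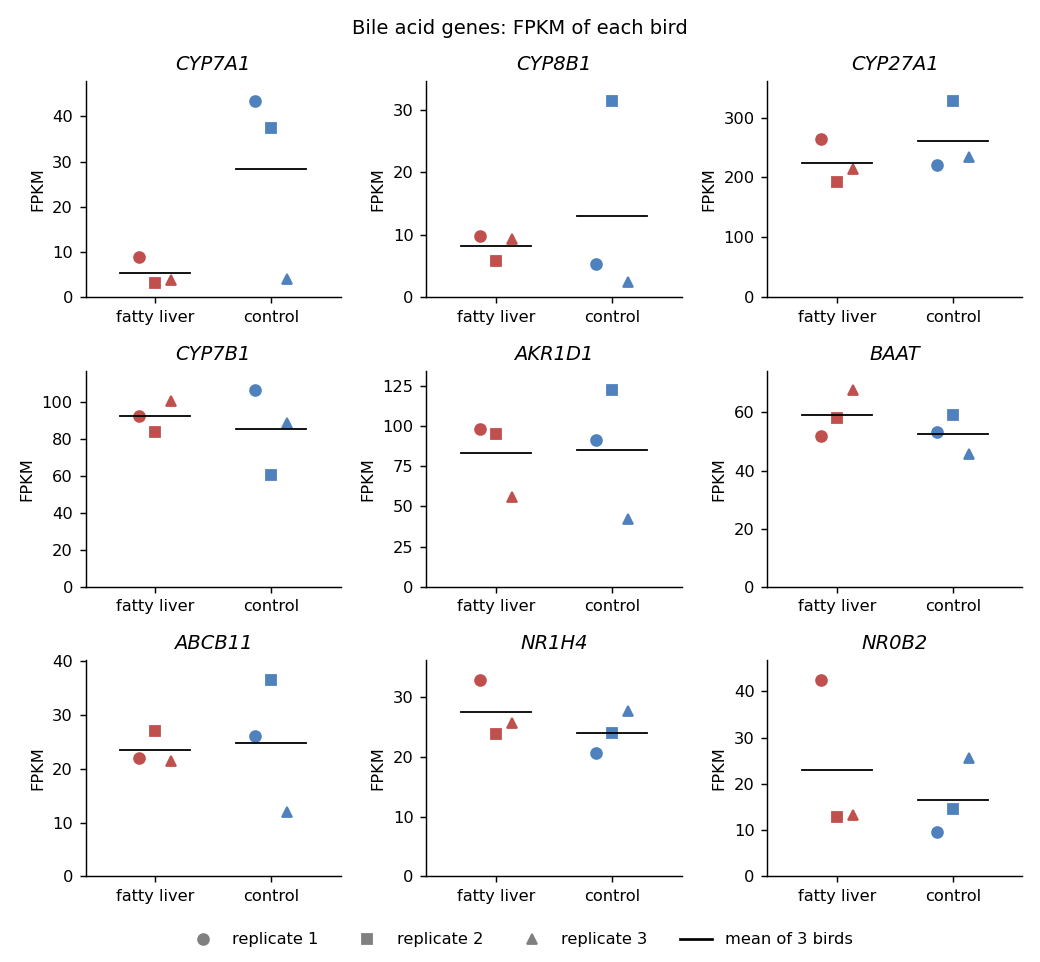
FPKM (vertical axis, from 0, a separate scale per gene) of the 9 bile acid genes above 0 in each of the 6 birds, fatty liver at left and control at right. Symbols mark the replicate number and lines the mean of 3 birds. The groups overlap in every panel, CYP7A1 is low in all birds with fatty liver and in control bird 3, and NR0B2 is highest in fatty liver bird 1 at 42.5 FPKM.

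ABCB11, the pump that exports bile salts into the canaliculus, had 22.1, 27.1 and 21.5 FPKM in fatty liver and 26.1, 36.5 and 12 FPKM in control. The birds with fatty liver were close to each other and lay inside the wider range of the control birds. Its log2 fold change was 0.05 (95% interval -0.77 to 0.87, limma adjusted p = 0.97). SLC10A1, which in mammals takes up conjugated bile salts from blood together with sodium, was listed at 0 FPKM in all 6 birds. It is 1 of 3313 genes listed at 0 in every library. RPL14, a ribosomal protein gene that every cell uses, is among them with 0 FPKM in all birds, so a listing at 0 does not show that SLC10A1 is not expressed. No fold change and no ratio to ABCB11 was taken for SLC10A1.

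NR1H4, which encodes FXR, had 32.9, 23.9 and 25.8 FPKM in birds with fatty liver and 20.6, 23.9 and 27.7 FPKM in control birds. The birds of both groups were within a narrow range, and the log2 fold change was 0.18 (95% interval -0.25 to 0.61, limma adjusted p = 0.68). NR0B2, which encodes SHP, had 42.5, 12.9 and 13.4 FPKM in fatty liver and 9.65, 14.7 and 25.6 FPKM in control. Fatty liver bird 1 was the highest, and the other birds with fatty liver lay among the control birds. The log2 fold change of NR0B2 was 0.32 (95% interval -0.8 to 1.45, adjusted p = 0.79), and without fatty liver replicate 1 it was -0.22. That bird also had the lowest macrophage and lymphocyte marker sums, and the part of cell composition in its NR0B2 level was not tested. Among control birds, NR0B2 was lowest in bird 1, where CYP7A1 was highest, and highest in bird 3, where CYP7A1 was lowest. In birds with fatty liver it was not so, as bird 1 had the highest level of both genes.

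**Figure D3:**
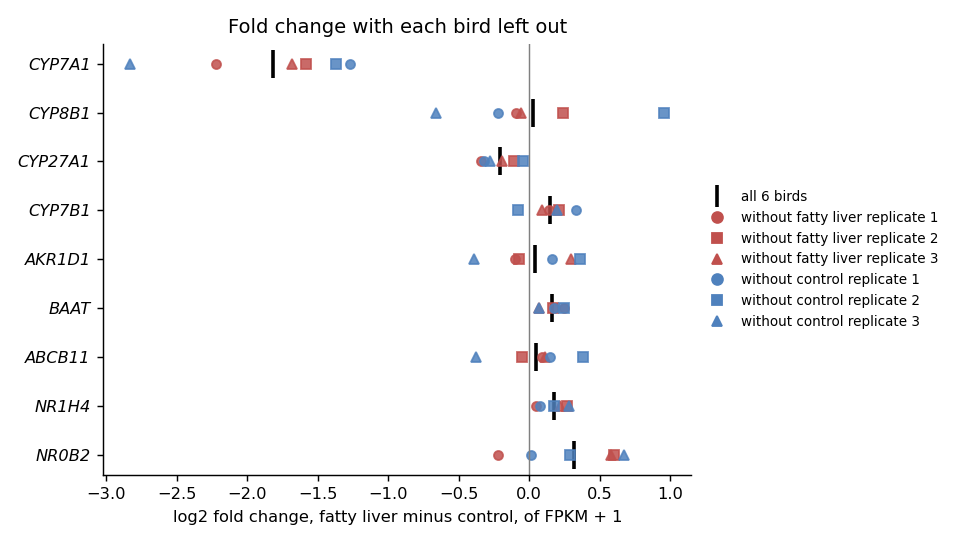
Log2 fold change of FPKM + 1 (horizontal axis, fatty liver minus control) for the 9 bile acid genes with all 6 birds (black bars) and with each bird left out (symbols). CYP7A1 stays below 0 in every fit and lies at -2.83 without control replicate 3, while CYP8B1, AKR1D1, ABCB11, CYP7B1 and NR0B2 fall on both sides of 0.

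The order of the levels, which FPKM allow to be compared between genes, was similar in both groups apart from CYP7A1. In birds with fatty liver the means ran from CYP27A1 (223.5 FPKM) over CYP7B1 (92.2 FPKM), AKR1D1 (83.1 FPKM), BAAT (59.3 FPKM), NR1H4 (27.5 FPKM), ABCB11 (23.5 FPKM), NR0B2 (22.9 FPKM) and CYP8B1 (8.27 FPKM) to CYP7A1 (5.28 FPKM). In control birds they ran from CYP27A1 (261 FPKM) over AKR1D1 (85.4 FPKM), CYP7B1 (85.1 FPKM), BAAT (52.8 FPKM), CYP7A1 (28.3 FPKM), ABCB11 (24.9 FPKM), NR1H4 (24.1 FPKM) and NR0B2 (16.6 FPKM) to CYP8B1 (13.1 FPKM). By mean, CYP7A1 was thus last of the 9 in fatty liver and the fifth in control. Control birds 1 and 2 carried that mean (43.5 and 37.5 FPKM). In control bird 3, at 4.07 FPKM, CYP7A1 was below all of the 9 except CYP8B1 (2.45 FPKM). Neighbours in the order whose ranges did not overlap were CYP27A1 and the next gene in both groups, BAAT and NR1H4 as well as NR0B2 and CYP8B1 in fatty liver, and CYP7B1 and BAAT as well as BAAT and CYP7A1 in control. All other neighbours overlapped in their ranges over 3 birds.

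In a ratio of 2 genes within a bird the scaling of the library largely cancels, and 5 ratios were compared on the log2 scale of FPKM + 1 with a two-sided exact permutation test over the 6 birds. The ratio CYP8B1/CYP7A1 was 0.11, 0.72 and 1.12 in birds with fatty liver, against -2.82, -0.24 and -0.56 in control birds. All birds with fatty liver thus had more CYP8B1 than CYP7A1 and all control birds had less, though the Poisson intervals of both genes overlapped in fatty liver bird 1 (160 against 164 fragments) and control bird 3 (39 against 72 fragments). The difference of the means was 1.85, a 3.61-fold difference (exact permutation p = 0.1, the smallest that 3 birds against 3 allow, adjusted p = 0.5 over the 5 ratios). Without control bird 1 the difference was 1.05. With this smallest p, no ratio could have passed a threshold of 0.05.

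The ratio CYP7B1/CYP7A1, which sets the alternative against the classic route, was 3.23, 4.36 and 4.41 in birds with fatty liver and 1.27, 0.67 and 4.14 in control birds. Control bird 3 lay inside the range of the birds with fatty liver, and the difference was 1.97 (exact permutation p = 0.2), with 1.3 without control replicate 2 and 3.03 without control replicate 3. CYP27A1/CYP7A1 was 4.73, 5.55 and 5.5 in fatty liver and 2.32, 3.1 and 5.54 in control, again with control bird 3 among the birds with fatty liver (difference 1.61, exact permutation p = 0.3, with 0.94 without control replicate 1 and 2.55 without control replicate 3). The 3 ratios to CYP7A1 share that gene and are not independent of each other. NR0B2/NR1H4 differed by 0.14 (exact permutation p = 0.8) and BAAT/AKR1D1 by 0.12 (exact permutation p = 0.6), less than the SD of 0.46 to 0.71 between birds of a group.

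**Figure D4:**
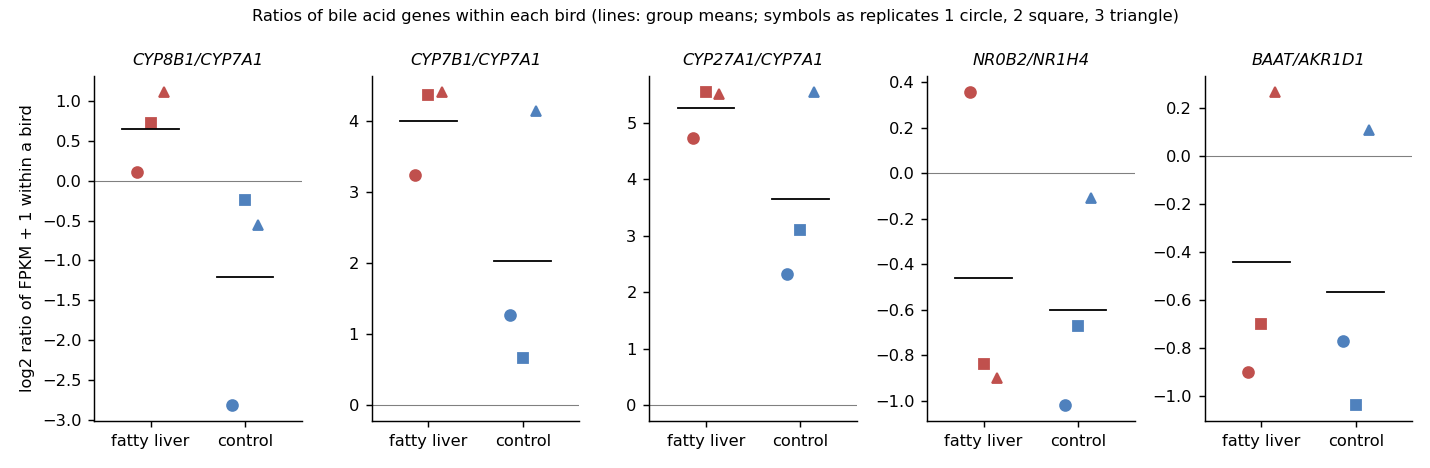
Log2 ratio of FPKM + 1 of 2 bile acid genes within each bird (vertical axis, a separate scale per ratio), fatty liver at left and control at right, with lines at the group means. The groups lie apart only for CYP8B1/CYP7A1, with 0.11 to 1.12 in fatty liver and -2.82 to -0.24 in control.

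The other genes of the pathway were described from lists of synthesis steps, transporters, regulators and FXR targets known in mammals. Of 40 such genes tested, 1 was called in fatty liver against control and was higher, and 0 were lower, while 30 had a positive and 10 a negative log2 fold change (25 positive after rescaling). Of all genes tested, 7314 of 10886 were positive. The 40 genes had a median of 0.34, where all genes tested had 0.12, and the rescaling gave 0.18 against -0.01. The groups did not overlap in 14 genes with fatty liver higher and in 4 with fatty liver lower, against the 18.3% and 4.78% of all genes given above.

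The gene called was ABCB1, which the gene table also lists as ABCB4, in mammals the name of the transporter that brings phosphatidylcholine into bile. It had 43.8, 62 and 36.4 FPKM in birds with fatty liver, against 11.3, 16 and 20.4 FPKM in control birds. Every bird with fatty liver was above every control bird, and the log2 fold change was 1.52 (standard error 0.26, limma adjusted p = 0.043). The call did not hold after rescaling without the 50 most abundant genes (1.36, adjusted p = 0.072), and it held in 5 of the 15 alternatives, with adjusted p between 0.039 and 0.13 over all of them. SOX9, one of 6 markers of bile duct cells and named after its values were seen, was also higher in fatty liver (6.28, 7.16 and 11.9 FPKM, against 1.76, 1.72 and 3.03 FPKM in control, limma adjusted p = 0.038, and not called after rescaling). Of these markers 5 were tested, 3 with a positive and 2 with a negative log2 fold change (EPCAM -0.59 and KRT7 -0.22), and 1, SOX9, was called. Among the positive ones, KRT19 (0.13) was matched through a synonym alone, and the gene table names that gene KRT24. Of all genes tested, 7314 of 10886 were positive and 1.14% were called. The sum of the 6 bile duct markers overlapped between the groups, at 53.3 to 114.7 FPKM in fatty liver and 58.4 to 112.7 FPKM in control. EPCAM alone gave 30.9 to 54.1 FPKM of it in fatty liver and 40.8 to 90.9 FPKM in control. A difference in SOX9 therefore hardly shows in the sum. The part of bile duct cells in the level of ABCB1 was not tested. ABCC2, another canalicular exporter, had 27.3, 23.3 and 28.4 FPKM in fatty liver, against 17.6, 16.9 and 11.4 FPKM in control, and its adjusted p was 0.12 (log2 fold change 0.76).

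Among synthesis genes, 11 were tested, 10 had a positive and 1 a negative log2 fold change, with a median of 0.47, and 0 were called (limma, 5 at an unadjusted p under 0.05). Over all genes tested 1.14% were called, 16.3% had an unadjusted p under 0.05 and the median was 0.12. AMACR, SCP2 and ABCD3 act in the peroxisome, where the side chain is shortened. AMACR, a racemase, had 56.1, 58.5 and 61.6 FPKM in fatty liver, against 38.6, 30.6 and 26.9 FPKM in control (log2 fold change 0.87, standard error 0.18, adjusted p = 0.066). SCP2, the thiolase, had 489.8, 396.3 and 407.8 FPKM in fatty liver and 280.1, 230.8 and 270.3 FPKM in control (log2 fold change 0.72, adjusted p = 0.086). ABCD3, a peroxisomal membrane transporter, had 52.4, 53.1 and 56.2 FPKM in fatty liver and 19.4, 29.5 and 41.7 FPKM in control (log2 fold change 0.88, adjusted p = 0.15). Every bird with fatty liver was above every control bird in these genes, but none passed the threshold. After rescaling, AMACR, SCP2 and ABCD3 had log2 fold changes of 0.71, 0.56 and 0.72 (limma adjusted p = 0.13, 0.2 and 0.22). The median of the synthesis genes was then 0.31, and that of all genes tested was -0.01. SCP2 and ABCD3 were named because their groups did not overlap, so nothing can be read from that. Over all genes tested, 18.3% had fatty liver higher without overlap. ACOX2 and HSD17B4 of the same list overlapped between the groups (log2 fold changes 0.47 and 0.33). HSD3B7, the ring dehydrogenase that follows CYP7A1, had 29.1, 31.5 and 14.6 FPKM in fatty liver and 23.5, 26.3 and 9.71 FPKM in control and overlapped, with the third bird lowest in each group as for AKR1D1.

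Among transporters, 12 were tested, 9 with a positive and 3 with a negative log2 fold change, and 1, ABCB1, was called (limma, 6 at an unadjusted p under 0.05). Their median was 0.44, and 0.27 after rescaling. All genes tested had medians of 0.12 and -0.01, with 7314 of 10886 positive before rescaling, 1.14% called and 16.3% at an unadjusted p under 0.05. The groups did not overlap in 7 genes of this list with fatty liver higher and 2 with it lower, against 18.3% and 4.78% of all genes tested. SLC51A and SLC51B encode the subunits of a basolateral bile acid exporter. SLC51A had 136.8, 169.1 and 155 FPKM in fatty liver and 122.8, 166.3 and 59.2 FPKM in control (log2 fold change 0.52, limma adjusted p = 0.5). SLC51B had 41.4, 46.5 and 44 FPKM in fatty liver and 63.9, 104.4 and 40.1 FPKM in control (log2 fold change -0.55, adjusted p = 0.43). The groups overlapped in both subunits, and both were lowest in control bird 3. EPHX1 encodes an enzyme, an epoxide hydrolase, but stands in the transporter list and is included in its counts. EPHX1 had 13.1, 17 and 13.1 FPKM in fatty liver and 8.05, 10.1 and 5.95 FPKM in control (log2 fold change 0.78, limma adjusted p = 0.12). SLCO1B1, an uptake transporter independent of sodium in mammals, had 0.98, 4.14 and 4.12 FPKM in fatty liver and 4.48, 6.86 and 4.61 FPKM in control (log2 fold change -0.74, adjusted p = 0.38, and -0.28 without fatty liver replicate 1). Its groups were barely apart, as fatty liver bird 2 had 118 fragments and control bird 1 had 138, and counting error was not worked out. Fatty liver bird 1 had 29 fragments. SLCO2B1, an organic anion transporter of the same family, had 35.4, 45.6 and 47.7 FPKM in fatty liver, against 64.9, 77.9 and 70 FPKM in control (log2 fold change -0.72, limma adjusted p = 0.097). All birds with fatty liver were below all control birds in SLCO2B1, and the gene did not pass the threshold. SLCO2B1 was named after its values were seen, and 4.78% of all genes tested had fatty liver lower without overlap.

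**Figure D5:**
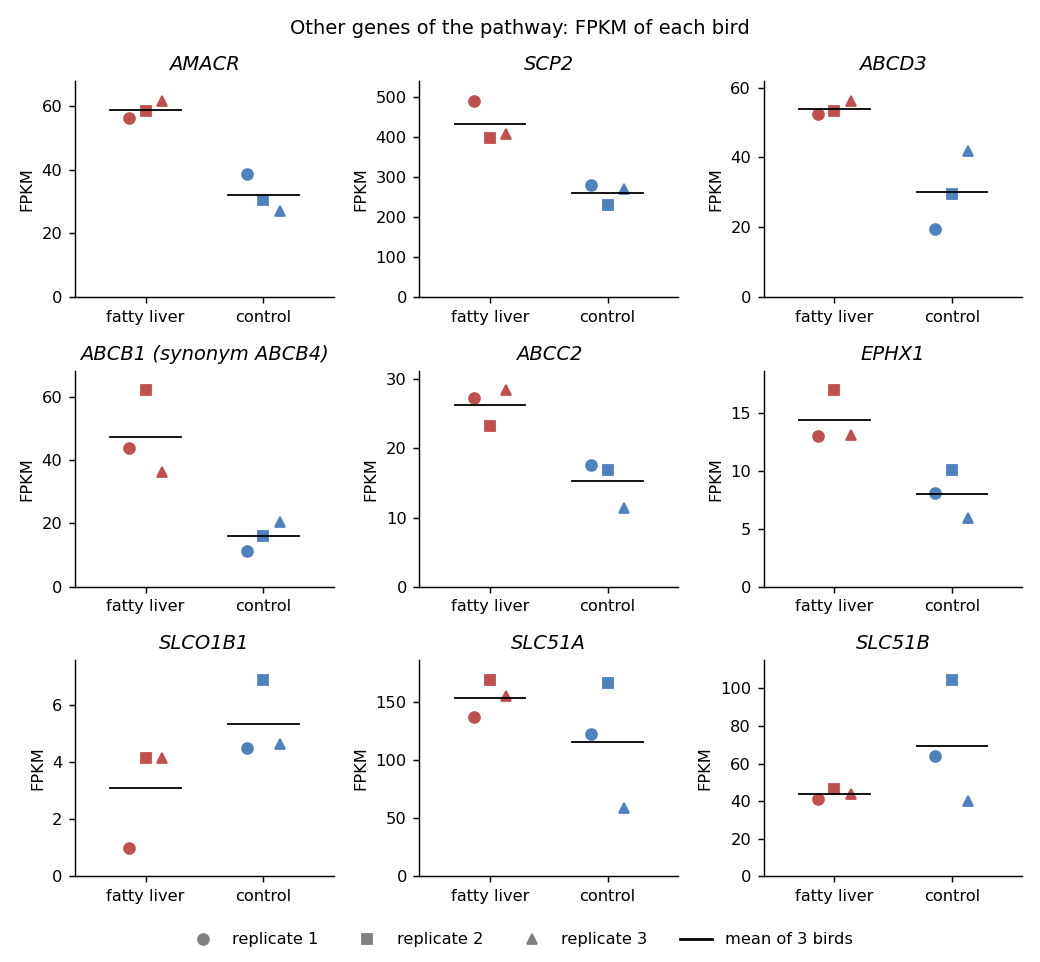
FPKM (vertical axis, from 0, a separate scale per gene) of 9 other genes of the bile acid pathway in each of the 6 birds, fatty liver at left and control at right, with lines at the means of 3 birds. Of these genes ABCB1 has an adjusted p under 0.05 (limma, 0.043). The groups also lie apart in AMACR, SCP2, ABCD3, ABCC2 and EPHX1, and narrowly in SLCO1B1 (4.14 against 4.48 FPKM). They overlap in SLC51A and SLC51B. SCP2, ABCD3, EPHX1 and SLCO1B1 were named from genes whose groups lie apart.

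Among regulators, 13 were tested, 7 with a positive and 6 with a negative log2 fold change, a median of 0.01, and 0 were called (4 positive after rescaling, limma, 3 at an unadjusted p under 0.05). Over all genes tested 1.14% were called and 16.3% had an unadjusted p under 0.05. HNF4A and NR5A2 encode receptors that in mammals activate CYP7A1 and CYP8B1. HNF4A had 15.2, 36.4 and 20.7 FPKM in fatty liver, against 15.6, 14.7 and 4.43 FPKM in control, with overlap (log2 fold change 1.07, adjusted p = 0.31). NR5A2 had 19.3, 26.7 and 24.2 FPKM in fatty liver and 18.5, 28.5 and 19.2 FPKM in control (log2 fold change 0.1, adjusted p = 0.87). PPARGC1A, a coactivator, had 1.58, 3.49 and 3.84 FPKM in fatty liver, against 3.96, 5.43 and 7.85 FPKM in control (log2 fold change -0.78, adjusted p = 0.25), and the groups did not overlap. PPARGC1A was named for that and for the size of its change. The groups did not overlap in 2 regulators with fatty liver lower, PPARGC1A and NR1H3 (log2 fold change -0.46, limma adjusted p = 0.19). They did not overlap in 1 with fatty liver higher, RXRA (0.45, limma adjusted p = 0.22). Over all genes tested, 4.78% had fatty liver lower and 18.3% had it higher without overlap.

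FGF19 is the intestinal hormone that in mammals represses CYP7A1 through the receptor FGFR4 and its partner KLB. In these livers FGF19 was counted on 3, 5 and 10 fragments in fatty liver and 0, 1 and 10 fragments in control, too few to be tested. FGFR4 had 45.9, 22.1 and 22.2 FPKM in fatty liver and 28.2, 36.7 and 38 FPKM in control (log2 fold change -0.26, limma adjusted p = 0.72). KLB had 2.64, 2.9 and 3.14 FPKM in fatty liver and 5.5, 4.66 and 2.81 FPKM in control, with control bird 3 again inside the range of the birds with fatty liver (log2 fold change -0.42, adjusted p = 0.39). Of 10 genes known as FXR targets in mammals, NR0B2 and ABCB11 among them, 9 were tested, 8 had a positive and 1 a negative log2 fold change, and the only one called was ABCB1, which stands in that list as ABCB4 and was matched through this synonym alone. After rescaling, 6 of the 9 were positive and 0 were called. Of all genes tested, 7314 of 10886 were positive before rescaling and 1.14% were called.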

How the data were processed

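Liver mRNA of 6 birds was sequenced on an Illumina HiSeq instrument, with 1 library per bird and 3 birds per group. The authors filtered reads with Sickle and SeqPrep, mapped them to Gallus_gallus_5.0 and deposited FPKM per NCBI Gene ID. The aligner, the counting tool and the annotation are not given in the sources used here. Gene names were looked up in RefSeq's annotation of bGalGal1.mat.broiler.GRCg7b, which held 16332 of the 20498 IDs. It was used for names only, and no coordinates or sequences are given. The genes and lists were chosen with earlier results of these data known.

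Genes whose mean level reached 1 FPKM were fitted as log2(FPKM + 1) with limma 3.58.1 in R 4.3.3 (lmFit, eBayes with trend, no covariate), with Benjamini-Hochberg adjustment over all genes tested and a threshold of 0.05. Fold changes on this scale understate the change of low genes. Whole fragments (within 0.01 of a whole number) were worked out from the FPKM for 90% of the genes above 0, and the floor was set at 3 fragments. The fit and the fragment step were tested on simulated data. Named genes were all 10 bile acid genes, 12 fixed pathway genes, called pathway genes, and the 8 largest changes among pathway genes without overlap. SLC27A5 was not found by name in the gene table. SLCO2B1, SOX9, ALB, FGG, APOA1, CD3D, NR1H3, RXRA, FABP6, VIL1 and RPL14 were named after their values were seen. Alternatives were another pseudocount, no filter, 3 scalings, 2 variance models, voom, the replicate number as a block, and each bird left out.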

Additional observations from a re-analysis of the deposited data

How the results depend on the processing

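The number of genes called, 124 on the FPKM as deposited, was 30 without the filter on low values, 79 with libraries scaled to the same median, and 22 to 119 with each bird left out (22 and 24 without fatty liver replicates 3 and 2, 36 and 77 without control replicates 2 and 1). The voom fit on whole fragments called 95. No bile acid gene was called in these fits except CYP7A1 without control replicate 3 (0 to 1 called over the 6 fits, log2 fold change -2.83, adjusted p = 0.03), and 14 of the 15 alternatives gave 0. The sources used here do not say whether same-numbered birds are paired. Over all genes tested, the deviations of same-numbered birds had correlations of 0.025, 0.045 and 0.048. A correlation over all genes cannot show whether single genes vary together in same-numbered birds. With the number as a block 140 genes and 0 bile acid genes were called. The block changed the standard error from 0.78 to 0.51 for CYP7A1 (limma adjusted p = 0.15) and from 0.39 to 0.21 for AKR1D1. For BAAT it rose from 0.17 to 0.21 and for NR1H4 from 0.19 to 0.22. Under a common median, quantile normalization, rescaling without the 50 most abundant genes and voom, the log2 fold change was -0.09, -0.09, -0.11 and -0.04 for CYP8B1, -0.1, -0.14, -0.12 and -0.1 for AKR1D1, -0.09, -0.08, -0.11 and -0.09 for ABCB11, and -0.04, -0.05, -0.06 and -0.05 for NR5A2. CYP7B1 had -0.03, -0.02 and 0 under the last 3 of these, and BAAT and ALB had 0 with quantile normalization, which gives ALB, the most abundant gene, 1 value in all libraries. With 1 bird left out, the fold change ran from -0.66 to 0.96 for CYP8B1, -0.08 to 0.33 for CYP7B1, -0.39 to 0.36 for AKR1D1, -0.38 to 0.38 for ABCB11, -0.22 to 0.67 for NR0B2, -0.06 to 0.7 for HSD3B7 and -0.01 to 0.29 for NR5A2, and the differences of the ratios from 1.05 to 2.33 for CYP8B1/CYP7A1, 1.3 to 3.03 for CYP7B1/CYP7A1, 0.94 to 2.55 for CYP27A1/CYP7A1, -0.27 to 0.39 for NR0B2/NR1H4 and -0.24 to 0.46 for BAAT/AKR1D1. What caused these changes was not tested. Depth limits the least counted values, such as CYP8B1 in control replicate 3 with 39 fragments.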

Other observations

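The ratio of the subunits of the basolateral exporter was higher in these birds with fatty liver, though neither subunit was called (limma adjusted p = 0.5 for SLC51A and 0.43 for SLC51B). The FPKM of SLC51A was 3.31, 3.64 and 3.52 times that of SLC51B in birds with fatty liver, against 1.92, 1.59 and 1.48 times in control birds. All birds with fatty liver were above all control birds, and the means were 3.49 ± 0.17 in fatty liver and 1.66 ± 0.23 in control (SD, n = 3 birds each). This ratio was chosen after its values were seen, so no test is given. How many other gene pairs have ratios that lie apart was not counted, so nothing can be read from the separation. Of single genes tested, 23.0% did not overlap between the groups. A ratio within a library shows unequal levels of the 2 genes and does not show which of them changed.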
